A study of Mus musculus with 7 samples.

Results

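Mesothelial genes were followed across 7 RNA-seq libraries of mouse abdominal aorta: Msln, Upk3b, Krt7, Krt8, Krt18, Krt19, Wt1 and Lrrn4. They were taken by symbol, with earlier results of these data known, and all 8 were found among the 21878 genes of the deposited count and FPKM tables. The libraries came from male C57BL/6 mice of 8 weeks that had received the pressor peptide angiotensin II (Ang II) for at most 28 days, a model of abdominal aortic aneurysm. Of these, 4 were labelled ApoE-/-Nur77-/-, here the double knockout (DKO 1 to DKO 4), and 3 were labelled ApoE-/- (ApoE 1 to ApoE 3). By label, both groups lack Apoe, whose loss raises plasma lipids, and both had Ang II, so neither is labelled an untreated aorta. Nr4a1 is the gene of Nur77, a nuclear receptor. The labels name no promoter, Cre driver or tissue restriction. They do not tie libraries to single mice, and p-values thus measure a spread between libraries that may be technical.

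Mesothelium is the single layer of flat epithelial cells that covers the organs and walls of the peritoneal, pleural and pericardial cavities, and that covers the heart as the epicardium. Its cells are epithelial in form but arise from mesoderm, and they hold simple keratins beside vimentin. Keratin filaments are built from pairs of a type II chain (Krt7, Krt8) and a type I chain (Krt18, Krt19). Msln encodes mesothelin, a surface protein anchored by a lipid tail, Upk3b a membrane protein of the uroplakin family, Lrrn4 a membrane protein with leucine-rich repeats, and Wt1 a zinc finger transcription factor of mesothelium, epicardium and podocytes. In bulk tissue, fewer cells of a type and less RNA per cell cannot be told apart.

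The libraries held 19295287 to 21727192 gene counts. The floor of 3 counts that a zero allows corresponded to 0.133 to 0.164 CPM (counts scaled to TMM library sizes), for counting error only. Nr4a1 was read at 46.2, 57.0, 90.1 and 92.7 CPM in the libraries labelled double knockout, against 193, 56.4 and 111 CPM in those labelled ApoE-/-, so the groups overlapped. Apoe, labelled a knockout everywhere, had 34.7, 18.3, 33.8 and 28.1 CPM in the libraries labelled double knockout, against 233, 250.3 and 184 CPM in those labelled ApoE-/-. Since these genes go against the labels, every direction below is that of the library labelled double knockout against the library labelled ApoE-/-. Smooth muscle markers of the vessel wall were abundant in both groups, at 10589 to 36041 summed CPM over 12 genes in the double knockout libraries and 18915 to 29015 in the ApoE-/- libraries. ApoE 2 and ApoE 3 stood apart in heart muscle genes: 12 atrial cardiomyocyte genes summed to 51.2 to 107 CPM in the double knockout libraries, and to 84.8, 440.3 and 1493 CPM in ApoE 1, ApoE 2 and ApoE 3.

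The RefSeq promoter table (GRCm38.p6) held 5 of the 8 members: Upk3b, Krt7, Krt8, Krt18 and Lrrn4. Msln, Krt19 and Wt1 had no entry. The 300 bases from 250 before to 50 after each start are shown because Nur77 is a DNA-binding receptor that reads a half-site AGGTCA, which many nuclear receptors share. Each of these windows held it once, in forward orientation, in capitals here. Upk3b lies on chr5:136038246-136038545 (plus strand), Krt7 on chr15:101412153-101412452 (plus), Krt8 on chr15:102004293-102004592 (minus), Krt18 on chr15:102027966-102028265 (plus) and Lrrn4 on chr2:132880813-132881112 (minus).
Upk3b: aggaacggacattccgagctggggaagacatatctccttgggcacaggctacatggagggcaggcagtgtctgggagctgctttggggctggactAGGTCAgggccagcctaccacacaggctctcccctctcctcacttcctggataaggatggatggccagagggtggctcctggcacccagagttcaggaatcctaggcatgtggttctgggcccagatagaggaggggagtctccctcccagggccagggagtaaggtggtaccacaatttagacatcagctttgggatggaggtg
Krt7: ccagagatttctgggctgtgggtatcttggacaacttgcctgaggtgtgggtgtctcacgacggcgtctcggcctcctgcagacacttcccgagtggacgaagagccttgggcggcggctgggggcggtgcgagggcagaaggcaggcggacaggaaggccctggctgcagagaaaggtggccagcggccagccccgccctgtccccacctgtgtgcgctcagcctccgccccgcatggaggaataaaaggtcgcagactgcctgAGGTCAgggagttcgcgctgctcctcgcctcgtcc
Krt8: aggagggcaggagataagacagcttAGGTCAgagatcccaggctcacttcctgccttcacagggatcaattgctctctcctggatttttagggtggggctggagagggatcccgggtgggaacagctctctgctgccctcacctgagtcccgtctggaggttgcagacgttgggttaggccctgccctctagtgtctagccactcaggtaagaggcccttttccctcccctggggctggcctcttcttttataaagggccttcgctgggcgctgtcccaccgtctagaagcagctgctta
Krt18: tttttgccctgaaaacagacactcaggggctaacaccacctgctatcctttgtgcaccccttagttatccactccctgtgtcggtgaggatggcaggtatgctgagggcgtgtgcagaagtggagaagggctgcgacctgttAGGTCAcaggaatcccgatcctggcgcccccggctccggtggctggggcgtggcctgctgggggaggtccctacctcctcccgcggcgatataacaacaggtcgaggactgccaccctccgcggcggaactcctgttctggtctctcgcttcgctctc
Lrrn4: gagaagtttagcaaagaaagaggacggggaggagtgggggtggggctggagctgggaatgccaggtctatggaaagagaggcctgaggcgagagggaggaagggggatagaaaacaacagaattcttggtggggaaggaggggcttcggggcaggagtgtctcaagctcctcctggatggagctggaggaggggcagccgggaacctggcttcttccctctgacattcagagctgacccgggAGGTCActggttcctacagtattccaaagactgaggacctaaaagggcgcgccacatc
The AGGTCA of Upk3b began 155 bases upstream of the start, that of Krt8 225, that of Krt18 108 and that of Lrrn4 8 bases upstream, while that of Krt7 began 15 bases downstream. The Lrrn4 window lies inside the RefSeq span of the gene (132866686 to 132894010), at an internal start. The other starts lie at an end of their gene's span. On either strand, AGGTCA (reverse complement TGACCT) occurred in 16.3% of the 32851 windows in the table. The motifs were chosen with the member sequences in view, so the matches in the 5 windows are no test against this share. The full Nur77 element AAAGGTCA (reverse complement TGACCTTT), which contains AGGTCA, was in 0 of the 5 windows and in 1.51% of all. TATAAA (either strand) was in the Krt8 window and in 13.6% of all, GGGCGG in the Krt7 window and in 35.7% of all, and GGAATG, a site of TEAD factors, in the Upk3b and Lrrn4 windows and in 14.7% of all. A site of WT1, GCGTGGGAG, was in 0 of the 5 and in 0.472% of all. These are matches of letters in short windows, not measured binding.

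Mesothelial genes were rare transcripts in all 7 libraries, apart from Krt18. Per unit of gene length, the median over the 7 libraries was 4.55 FPKM for Krt18, 0.880 for Krt19, 0.468 for Upk3b, 0.279 for Msln, 0.259 for Wt1, 0.236 for Lrrn4, 0.210 for Krt7 and 0.114 for Krt8. The order from Msln to Krt7 spans less than the range of any of these genes between libraries. As counts, the 8 genes together held 13.2, 18.8, 13.8 and 16.6 CPM in DKO 1 to DKO 4, against 15.5, 22.1 and 27.5 CPM in ApoE 1 to ApoE 3. Without Krt18 the sums were 7.76, 7.41, 3.24 and 6.85 CPM in the double knockout libraries, against 5.21, 13.9 and 18.3 CPM in the ApoE-/- libraries. ApoE 2 and ApoE 3 were thus the highest, and DKO 3 and ApoE 1 the lowest.

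**Figure D1:**
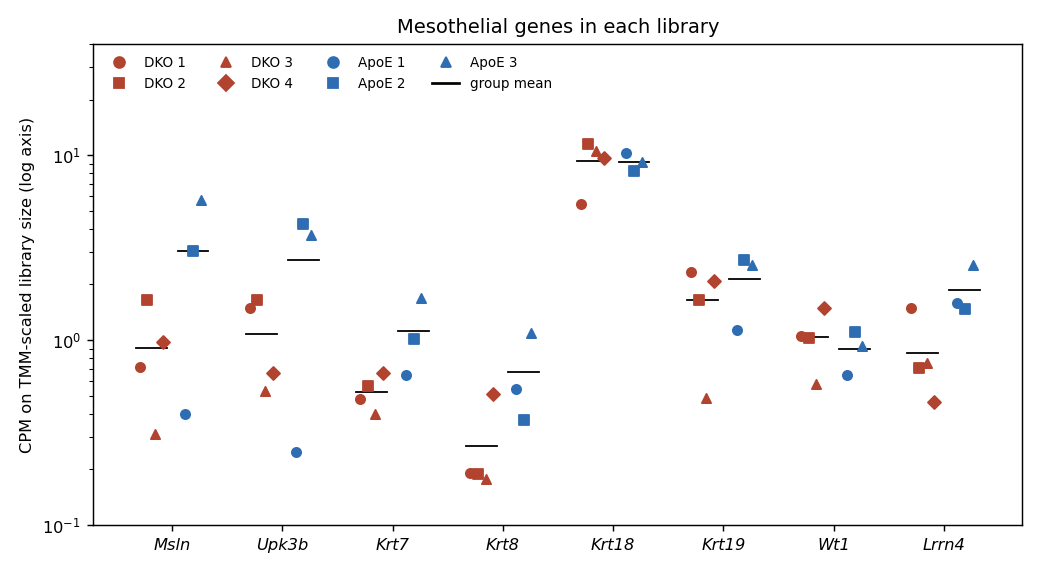
CPM on a log axis of the 8 mesothelial genes, with DKO libraries left of ApoE-/- libraries, 1 symbol per library and a line at each group mean. Msln and Upk3b span 18.4-fold and 17.1-fold between libraries, Krt18 2.10-fold, and the groups overlap for every gene.

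Among the surface proteins, Msln was at 0.718, 1.64, 0.311 and 0.972 CPM in DKO 1 to DKO 4, against 0.397, 3.03 and 5.73 CPM in ApoE 1 to ApoE 3. It was highest in ApoE 3 and next in ApoE 2, while ApoE 1 lay inside the range of the double knockout libraries. Behind these are 15, 35, 7 and 19 counts in the double knockout libraries and 8, 66 and 105 counts in the ApoE-/- libraries. The exact Poisson 95% intervals of DKO 2 (1.14 to 2.28 CPM), ApoE 2 (2.35 to 3.86 CPM) and ApoE 3 (4.68 to 6.93 CPM) did not overlap one another, and those of DKO 3 (0.125 to 0.640 CPM) and ApoE 1 (0.171 to 0.781 CPM) did. These intervals cover counting error only. The group means were 0.910 ± 0.558 CPM (SD, n = 4) in double knockout and 3.05 ± 2.67 CPM (SD, n = 3) in ApoE-/- libraries. The log2 fold change of -1.74 (SE 0.84, 95% interval -3.70 to 0.22) did not pass edgeR's quasi-likelihood test with Benjamini-Hochberg adjustment over all 14609 genes tested (adjusted p = 0.297). It was -0.91 (adjusted p = 0.727) without ApoE 3 and -2.26 (adjusted p = 0.321) without ApoE 1. With ApoE 2 and ApoE 3 left out together it was 1.18 (SE 1.04, adjusted p = 0.733), a change of direction in a fit where ApoE 1 is alone and is taken to vary like the other group.

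Upk3b, the uroplakin relative, was at 1.48, 1.64, 0.533 and 0.665 CPM in DKO 1 to DKO 4, against 0.248, 4.23 and 3.71 CPM in ApoE 1 to ApoE 3. ApoE 2 and ApoE 3 were again the highest, and ApoE 1, with 5 counts, was the lowest of all 7. The Poisson interval of DKO 2 (1.14 to 2.28 CPM), the highest double knockout library, lay below those of ApoE 2 (3.41 to 5.18 CPM) and ApoE 3 (2.88 to 4.70 CPM), which overlapped each other. Its log2 fold change was -1.33 (SE 0.83, 95% interval -3.28 to 0.61, edgeR adjusted p = 0.402). It was -0.86 (adjusted p = 0.624) without ApoE 2 and -1.87 (SE 0.51, adjusted p = 0.321) without ApoE 1. It was 2.09 (SE 0.99, adjusted p = 0.570) with ApoE 2 and ApoE 3 left out together, and 0.20 (SE 0.99, adjusted p = 0.897) with limma voom and sample quality weights. The ratio of Msln to Upk3b lay between 0.484 and 1.60 over the 7 libraries, a narrower span than that of either gene.

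Lrrn4, the leucine-rich repeat protein gene, was at 1.48, 0.703, 0.755 and 0.460 CPM in DKO 1 to DKO 4, against 1.59, 1.47 and 2.56 CPM in ApoE 1 to ApoE 3. Only DKO 1 among the double knockout libraries reached the ApoE-/- range, where it lay just above ApoE 2. Unlike Msln and Upk3b, Lrrn4 was not low in ApoE 1. Over all libraries its log2 fold change was -1.13 (SE 0.45, 95% interval -2.18 to -0.08), with an unadjusted p of 0.0380 and an adjusted p of 0.225 in edgeR's test. Without DKO 1 it was -1.52 (adjusted p = 0.242), and without ApoE 3 it was -0.84 (unadjusted p = 0.142, adjusted p = 0.589). The RefSeq span of Lrrn4 (chromosome 2, 132866686 to 132894010, GRCm38.p6) overlaps that of Crls1, a mitochondrial cardiolipin synthase gene on the other strand. Crls1 was at 36.6, 29.3, 31.4 and 39.2 CPM in the double knockout libraries and at 47.6, 38.7 and 70.8 CPM in the ApoE-/- libraries. Whether reads were counted by strand is not given in the sources used here, and the part of Crls1 reads in the Lrrn4 count was not tested.

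Wt1, the transcription factor of the set, had one of the flattest profiles. It was at 1.05, 1.03, 0.577 and 1.48 CPM in DKO 1 to DKO 4, against 0.645, 1.10 and 0.927 CPM in ApoE 1 to ApoE 3. The highest library was DKO 4 and the lowest DKO 3, so the range of the ApoE-/- libraries lay inside that of the double knockout libraries. A log2 fold change of 0.21 (SE 0.40, 95% interval -0.73 to 1.16) missed the threshold of edgeR's test by far (adjusted p = 0.814). It was -0.02 with the replicate number as a block, -0.01 without DKO 4 and 0.41 without DKO 3.

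Krt8 and Krt18 usually form one filament, and their genes lie 23874 bases apart on chromosome 15, yet their levels differed widely. Krt18 was at 5.46, 11.4, 10.5 and 9.72 CPM in DKO 1 to DKO 4, against 10.3, 8.18 and 9.22 CPM in ApoE 1 to ApoE 3. DKO 1 was the lowest and DKO 2 the highest, and the 3 ApoE-/- libraries lay between them. Its group means, 9.28 ± 2.65 CPM (SD, n = 4) in double knockout and 9.22 ± 1.04 CPM (SD, n = 3) in ApoE-/- libraries, differed by less than the spread between replicates (log2 fold change 0.01, SE 0.26, 95% interval -0.60 to 0.62, edgeR adjusted p = 0.985). Krt8 was at 0.192, 0.188, 0.178 and 0.511 CPM in DKO 1 to DKO 4, against 0.545, 0.368 and 1.09 CPM in ApoE 1 to ApoE 3. DKO 4 stood above the other double knockout libraries, each of which held only 4 Krt8 counts, and it lay inside the ApoE-/- range. The log2 fold change of Krt8 was -1.31 (SE 0.59, 95% interval -2.68 to 0.07, edgeR adjusted p = 0.273), and -0.77 (adjusted p = 0.688) without ApoE 3. That of Krt8 was -1.60 (adjusted p = 0.207) without ApoE 2 and -1.71 (adjusted p = 0.172) with the replicate number as a block. Krt8 reached the expression cutoff of 0.477 CPM in 3 libraries, the fewest that the filter accepts, and 2 of these were ApoE-/- libraries.

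On the length-scaled FPKM values, Krt18 exceeded Krt8 by 31.2, 68.9, 65.5 and 21.7-fold in DKO 1 to DKO 4, and by 20.4, 32.7 and 9.78-fold in ApoE 1 to ApoE 3. The excess of Krt18 was thus present in all 7 libraries, and it was smallest in ApoE 3. With 4 counts of Krt8 behind 3 of these ratios, their exact size is uncertain. Both keratins have close relatives, and how reads shared with them were counted is not given in the sources used here.

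**Figure D2:**
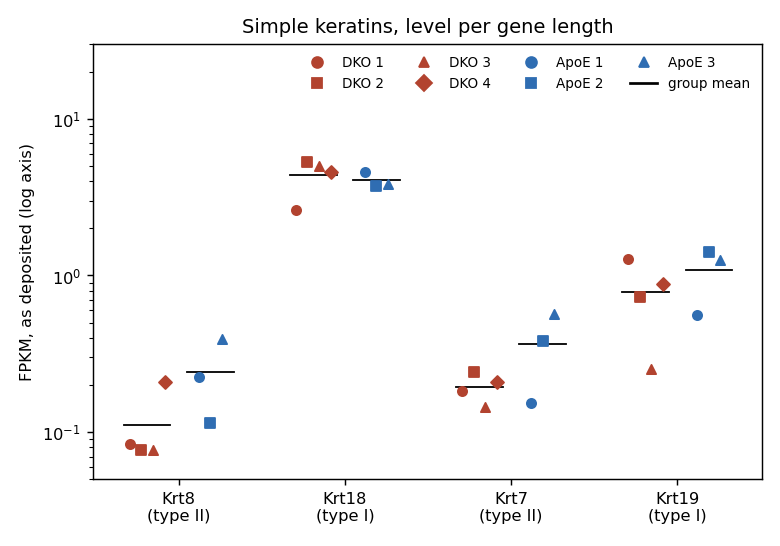
Deposited FPKM on a log axis of the simple keratins Krt8, Krt18, Krt7 and Krt19, with DKO libraries left of ApoE-/- libraries and a line at each group mean. Krt18 lies between 2.62 and 5.34 FPKM in every library and Krt8 between 0.0768 and 0.391 FPKM.

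Krt7, the other type II chain, was at 0.479, 0.563, 0.400 and 0.665 CPM in DKO 1 to DKO 4, against 0.645, 1.01 and 1.69 CPM in ApoE 1 to ApoE 3. The groups overlapped by a single pair, DKO 4 above ApoE 1, with 13 counts in each. On the authors' length-scaled values the overlap was wider, with ApoE 1 at 0.153 FPKM and DKO 1, DKO 2 and DKO 4 at 0.182, 0.241 and 0.209 FPKM. From counts, Krt7 had a log2 fold change of -1.07 (SE 0.42, 95% interval -2.05 to -0.09), the smallest p among the 8 genes (unadjusted p = 0.0356, edgeR adjusted p = 0.220; exact two-sided permutation p = 0.0571, where 0.0286 is the smallest that 35 splits allow). Without ApoE 1 it was -1.35 (adjusted p = 0.3255), without ApoE 3 -0.65 (adjusted p = 0.626), and with ApoE 2 and ApoE 3 left out together -0.29.

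Krt19, the type I chain of simple epithelia that lacks most of the tail domain, was at 2.35, 1.64, 0.488 and 2.10 CPM in DKO 1 to DKO 4, against 1.14, 2.71 and 2.56 CPM in ApoE 1 to ApoE 3. DKO 3 and ApoE 1 were low, and the remaining libraries of both groups lay between 1.64 and 2.71 CPM. Krt19 had a log2 fold change of -0.38 (SE 0.55, 95% interval -1.67 to 0.91; adjusted p = 0.740 in edgeR's test). It was -0.08 without DKO 3, -0.68 without ApoE 1 and 0.52 with ApoE 2 and ApoE 3 left out together. On FPKM, Krt19 exceeded Krt7 by 1.75-fold to 6.97-fold in double knockout and by 2.22-fold to 3.72-fold in ApoE-/- libraries.

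Across the set, 0 of the 8 members passed edgeR's test in either direction, where 0.0274% of all genes tested did (0 higher and 4 lower in double knockout). DESeq2's Wald test called 0 of the 5 members to which it gave an adjusted p (none for Krt7, Krt8 and Wt1), where 8.26% of the 13708 genes with one were called. Limma voom called 0 of the 8, where 16.2% of all genes were called. At an unadjusted p under 0.05, 0 members were higher and 2 lower, Krt7 and Lrrn4, where 8% of all genes were higher and 11.8% lower. The groups did not overlap for 0 of the 8 members, where 16.3% of all genes had such groups (7.08% with all double knockout libraries above and 9.24% with all below). Of the 8 members, 6 had a negative log2 fold change (median of all 8 -1.10), where 52.6% of all genes did (median -0.02). All 8 passed the filter on low counts.

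**Figure D3:**
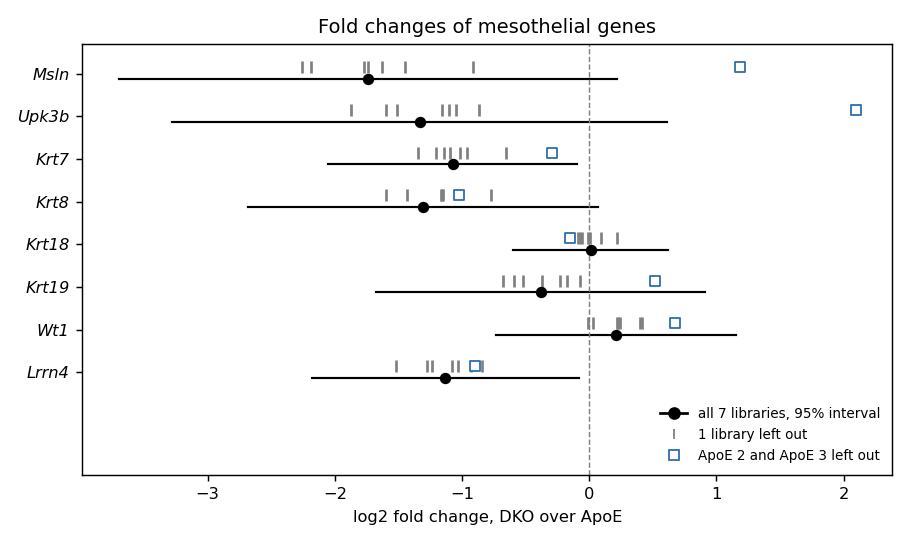
Log2 fold changes, DKO over ApoE, of the 8 genes: points with 95% intervals for all 7 libraries, grey ticks with 1 library left out, and open squares with ApoE 2 and ApoE 3 left out together. Msln is at -1.74 for all libraries and at 1.18 for the open square, and Upk3b at -1.33 and at 2.09.

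The spread between libraries exceeded counting error for each gene, to unequal degrees. The coefficient of variation over the 7 libraries was 107% for Msln, where its mean count alone would give 16.6%, and 88.4% for Upk3b, where it would give 16.5%. For Krt8 it was 74.4% against 33.9% from counting, for Krt7 57.4% against 25.2%, for Lrrn4 55.8% against 19.6% and for Krt19 43.8% against 16.3%. Wt1 came nearest to counting error, at 31.2% against 22.4%, and Krt18 had the smallest spread, at 21.2% against 7.23%.

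**Figure D4:**
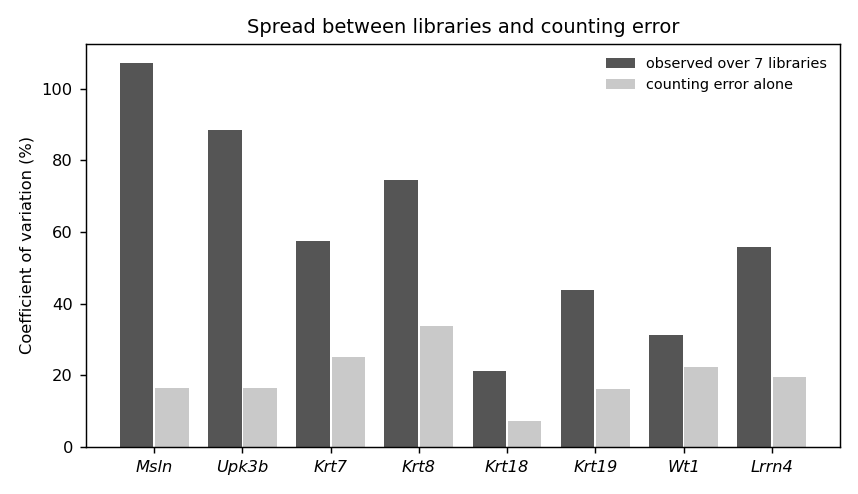
Coefficient of variation of CPM over the 7 libraries (dark bars, observed) beside the value that Poisson counting at the mean count would give (light bars), in percent. Msln and Upk3b stand out at 107% and 88.4%.

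Msln and Upk3b were highest in the libraries with heart muscle genes. Their summed level was 2.20, 3.28, 0.844 and 1.64 CPM in DKO 1 to DKO 4, against 0.645, 7.26 and 9.44 CPM in ApoE 1 to ApoE 3. Of the atrial genes, the natriuretic peptide gene Nppa was at 0, 0.0938, 0 and 0 CPM in DKO 1 to DKO 4, against 0, 10.2 and 20.0 CPM in ApoE 1 to ApoE 3. Tnnt2, cardiac troponin T and the atrial gene with the smallest p, was at 7.02 to 11.3 CPM in the double knockout libraries, against 15.1, 71.6 and 228 CPM in ApoE 1 to ApoE 3 (log2 fold change -3.46, SE 0.77, edgeR adjusted p = 0.144). Of 11 atrial genes tested, 0 were called, where 0.0274% of all genes were. At an unadjusted edgeR p under 0.05, 9 of the 11 were lower, where 11.8% of all genes were. Negative fold changes were found for 11 of 11 (median -3.46), where 52.6% of all genes had them. Whether heart muscle tissue had a part in the Msln and Upk3b levels was not tested. Fat genes also differed in level: 16 white adipocyte genes summed to 6863 to 10354 CPM in the double knockout libraries and to 13800 to 18576 CPM in the ApoE-/- libraries, and 10 brown adipocyte genes to 381 to 801 CPM in double knockout and 847 to 2378 CPM in ApoE-/- libraries. Over the 7 libraries, Pearson's r of log2 CPM with the mean of the white adipocyte genes was 0.92 for Krt8, 0.82 for Krt7, 0.71 for Lrrn4, 0.47 for Msln, 0.39 for Krt19, 0.19 for Upk3b, 0.02 for Krt18 and -0.04 for Wt1. With the brown adipocyte genes r was 0.93 for Krt8, 0.85 for Krt7, 0.75 for Lrrn4 and 0.55 for Msln. It was 0.53 for Krt19, 0.28 for Upk3b, 0.09 for Wt1 and -0.15 for Krt18. With the atrial genes r was 0.92 for Msln, 0.91 for Krt7, 0.85 for Upk3b and 0.72 for Lrrn4. It was 0.60 for Krt19, 0.59 for Krt8, 0.16 for Wt1 and -0.11 for Krt18. These values are descriptions of 7 libraries in which fat genes were highest in ApoE 1 to ApoE 3, and atrial genes in ApoE 2 and ApoE 3. Their part in the mesothelial levels was not tested.

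**Figure D5:**
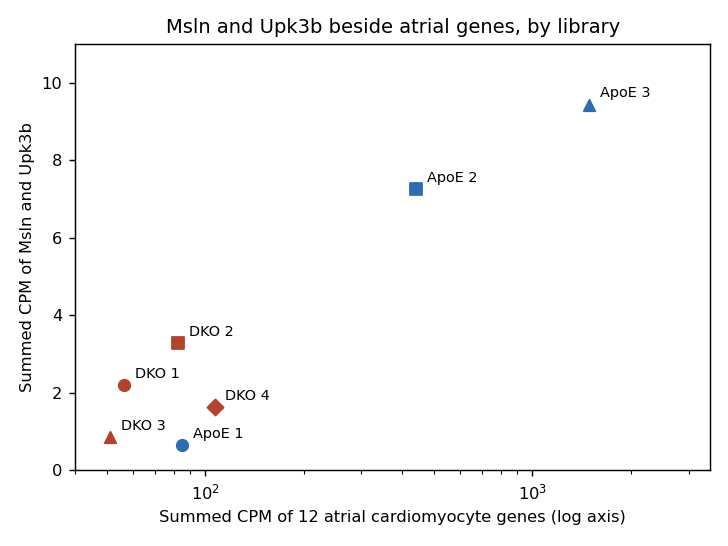
Summed CPM of Msln and Upk3b against the summed CPM of 12 atrial cardiomyocyte genes (log axis), 1 labelled point per library, DKO in red and ApoE-/- in blue. ApoE 2 and ApoE 3 lie apart on both axes, at 7.26 and 9.44 CPM for the pair, and the other 5 libraries lie at or below 3.28 CPM.

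Other genes of mesothelium and epicardium did not share a single profile. Of 16 listed, 14 were tested and 0 were called, where 0.0274% of all genes were. Of these 14, 5 were positive and 9 negative, where 52.6% of all genes were negative. Their median log2 fold change was -0.53, where the median of all genes was -0.02. Upk1b, another uroplakin, was at 0.192, 0.516, 0 and 0.0511 CPM in DKO 1 to DKO 4, against 0.0496, 0.827 and 1.53 CPM in ApoE 1 to ApoE 3. Muc16, the mucin that binds mesothelin, was at 0.814, 0.234, 0.222 and 0.153 CPM in DKO 1 to DKO 4, against 0, 1.06 and 1.31 CPM in ApoE 1 to ApoE 3, and Bnc1, a zinc finger factor, was at most 0.153 CPM in the double knockout libraries, against 0, 0.230 and 0.436 CPM in ApoE 1 to ApoE 3. These genes, named after their values were seen, were highest in ApoE 2 and ApoE 3, as Msln and Upk3b were, and under the floor in ApoE 1. Calb2, the calcium binder calretinin, was instead read in DKO 2 (2.39 CPM) and ApoE 2 (2.57 CPM) and at 0 in the other 5 libraries. Dmkn, an epithelial secreted protein gene, was also highest there, with 10.2 CPM for DKO 2 and 10.8 CPM for ApoE 2, but ApoE 1 held 5.26 CPM.

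Over the 7 libraries, Pearson's r of log2 CPM with the mean of the 16 listed genes was 0.75 for Upk3b, 0.74 for Msln and 0.64 for Krt19. It was 0.60 for Krt7, 0.45 for Wt1, 0.24 for Lrrn4, 0.22 for Krt8 and -0.02 for Krt18, as a description. Taken singly, the more abundant listed genes did not have the Msln profile. Lrrn4cl, which encodes an LRRN4 C-terminal-like protein, had the smallest p of the list, at 29.7, 17.6, 21.4 and 17.9 CPM in double knockout, against 42.4, 48.4 and 65.7 CPM in ApoE-/- libraries. Its groups did not overlap, and edgeR put its log2 fold change at -1.27 (SE 0.23), with an adjusted p of 0.120. Cldn15, a claudin of tight junctions, also had groups that did not overlap, at 7.36 to 11.3 CPM in double knockout and 11.4 to 16.4 CPM in ApoE-/- libraries (log2 fold change -0.59, adjusted p = 0.177). Of all genes tested, 16.3% had groups that did not overlap, 9.24% with all double knockout libraries below. The other listed genes with a mean of at least 1 CPM had overlapping groups: Dmkn (log2 fold change -0.87), Rspo1, a WNT agonist (-0.76), Nkain4 (-0.65), the epicardial factor genes Tcf21 (-0.47) and Tbx18 (-0.01), the retinoic acid enzyme gene Aldh1a2 (0.10), the membrane glycoprotein gene Gpm6a (0.15), Ezr, the membrane linker ezrin (0.16), Pdpn, podoplanin of mesothelium and lymphatic vessels (0.40), and Slpi, a protease inhibitor (0.77). Their adjusted p lay between 0.281 and 0.983.

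Markers of other epithelia were read at unequal levels. Of the urothelial genes, Upk2, Upk3a and Psca had 0 counts in all 7 libraries, and the 7 listed genes together held 1.31 to 3.69 CPM in double knockout and 2.51 to 3.12 CPM in ApoE-/- libraries. Of the podocyte genes, which bear on Wt1, Nphs1 had counts only in DKO 1 (0.0958 CPM). The 14 pan-epithelial genes summed to 19.9 to 27.8 CPM in double knockout and 15.9 to 20.9 CPM in ApoE-/- libraries, beside 13.2 to 18.8 CPM in double knockout and 15.5 to 27.5 CPM in ApoE-/- libraries for the 8 mesothelial members. As a description, Pearson's r of log2 CPM with the pan-epithelial mean was negative for all 8 members, from -0.87 for Msln to -0.20 for Wt1. The pan-epithelial gene with the highest mean CPM, not scaled by length, was Cldn3, a claudin of tight junctions, at 4.55 to 19.2 CPM in double knockout and 5.93 to 13.1 CPM in ApoE-/- libraries. Cdh1, the adhesion protein E-cadherin, was at 0.665 to 3.78 CPM in double knockout and 0.873 to 2.07 CPM in ApoE-/- libraries. Epcam, an adhesion protein of most epithelia but not of mesothelium, was at 0.188 to 0.799 CPM in double knockout and 0.0545 to 0.446 CPM in ApoE-/- libraries. The kidney tubule genes summed to 2.30 to 6.13 CPM in double knockout, against 8.08 to 10.6 CPM in ApoE-/- libraries, with most of that from the water channel gene Aqp2 (log2 fold change -1.42, adjusted p = 0.158), while Umod was at 0 in all libraries. Gut and pancreas genes summed to 7.56 to 13.8 CPM in double knockout, against 19.1 to 39.3 CPM in ApoE-/- libraries, led by the galectin gene Lgals4 (log2 fold change -1.72, adjusted p = 0.111), with Fabp2, Cdx2 and Pnlip at 0. Lung epithelium genes summed to 3.21 to 5.16 CPM in double knockout, against 4.96 to 17.3 CPM in ApoE-/- libraries. Adrenal cortex genes summed to 3.60 to 6.99 CPM in double knockout, against 6.11 to 8.00 CPM in ApoE-/- libraries. Few genes of these lists were abundant enough to be tested: 6 of 14 pan-epithelial, 2 of 7 urothelial, 5 of 7 podocyte, 1 of 10 kidney tubule, 2 of 9 gut and pancreas, 2 of 8 lung and 2 of 8 adrenal genes. Of those tested, 0 were called by edgeR, where 0.0274% of all genes were. At an unadjusted edgeR p under 0.05, 1 was higher and 3 lower, where 8% of all genes were higher and 11.8% lower. The lowest adjusted p on the pan-epithelial list was 0.316, for the protease inhibitor gene Spint1. Among genes not tested, Scgb1a1, a secretoglobin of airway club cells that was picked out after its values were seen, had groups that did not overlap, at 0.0444 to 0.431 CPM in double knockout libraries, against 10.6, 0.460 and 2.29 CPM in ApoE 1 to ApoE 3. Of the genes that were tested, 9.24% had all double knockout libraries below all ApoE-/- libraries.

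Other keratins and their partners showed which part of a keratin network was read. Of 16 other keratins, only 3 were abundant enough to be tested, Krt10, Krt79 and Krt80, and Krt6a and Krt17 had 0 counts in all libraries. Krt80, a type II keratin, was at 12.02 to 22.3 CPM in double knockout and 20.0 to 26.3 CPM in ApoE-/- libraries, and Krt79 had the smallest p of the list (log2 fold change -0.68, adjusted p = 0.303). Of 14 linkers and partner filaments, 14 were tested and 0 called, where 0.0274% of all genes were called. Of these, 7 were positive and 7 negative (median -0.02), where 52.6% of all genes were negative. Ppl, periplakin, which ties filaments to the cell edge, was at 11.7 to 26.6 CPM in double knockout and 41.5 to 46.7 CPM in ApoE-/- libraries, without overlap (log2 fold change -1.29, SE 0.30, edgeR adjusted p = 0.146). All double knockout libraries also lay below all ApoE-/- libraries for 9.24% of all genes tested. Vim, the filament protein of mesenchymal cells, was at 2788 to 4428 CPM in double knockout and 3455 to 4604 CPM in ApoE-/- libraries. Of 6 relatives of Upk3b, Lrrn4 and Msln that were tested, 0 were called, against the same 0.0274% of all genes. Lrrn2 had the smallest p of these (log2 fold change -0.86, edgeR adjusted p = 0.354). Mslnl, which lies 259 bases from Msln, was at 0.383 to 1.64 CPM in double knockout and 0.460 to 1.39 CPM in ApoE-/- libraries.

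The genes nearest to the set in profile were sought among 13906 tested genes with a mean of at least 1 CPM, by Pearson's r of log2 CPM over the 7 libraries with the mean of the 8 members. This is a description of 7 libraries that differ in the levels of heart muscle and fat genes, with no test. The 6 highest were D2hgdh (0.97), Zfp526 (0.97), Dnajc28 (0.97), Fndc5 (0.97), Entpd5 (0.97) and Tnnc1 (0.96). Tnnc1, cardiac troponin C, was at 0.355 to 1.22 CPM in double knockout libraries, against 0.843, 8.04 and 37.0 CPM in ApoE 1 to ApoE 3. The nearest gene of each single member was a different one: Dnajc28 for Msln (0.99), Cbx8 for Upk3b (0.97), the cardiac actin gene Actc1 for Krt7 (0.99), Apba3 for Krt8 (0.998), Iqce for Krt18 (0.98), 1600002H07Rik for Krt19 (0.96), Epm2a for Wt1 (0.95) and Aldh3a1 for Lrrn4 (0.99). Many other genes came close for some members. Of the 13906 genes, r was above 0.9 for 1179 with Krt8, 195 with Krt7 and 100 with Lrrn4. It was so for 26 with Msln, 18 with Upk3b, 18 with Krt18, 8 with Wt1 and 4 with Krt19. Among the 28 pairs of members, r was above 0 for 22, highest for Msln with Upk3b (0.90) and lowest for Krt18 with Krt19 (-0.49).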

How the data were processed

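Deposited gene counts, which the authors did not normalise, and FPKM values, scaled by the authors per gene length and sequencing depth, were used for all 7 libraries; columns were matched by genotype and number. Per the submitters' processing notes, Trimmomatic, HISAT2, HTSeq, Cufflinks and DESeq were used with GRCm38.p6; versions and the strand setting: not given in the sources used here.

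After edgeR's filterByExpr (minimum count 10, leaving 14609 genes), counts were TMM-normalised and tested with the edgeR 4.0.16 quasi-likelihood test (R 4.3.3; no covariates; Benjamini-Hochberg over all genes tested; threshold 0.05). Each standard error was |log2 fold change|/√F. CPM is on TMM-scaled library sizes, and log2 CPM has a prior count of 2. Single genes also had exact permutation tests over 35 splits. Alternatives used DESeq2 1.42.0, limma 3.58.1, other filters and normalisations, left-out libraries, a replicate block, and limma on log2(FPKM + 1) or log2(FPKM + 0.1). In the tables, 27 gene symbols that had been turned into dates were restored. The edgeR test was checked on simulated counts, with changes placed only in genes whose mean CPM had a log2 above 1. Of the members only Krt18 lies there, so the check does not cover the levels of the others.

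The members and the other 19 lists were chosen with earlier results of these data known. Motifs were chosen with the promoter sequences in view. Named genes were the members, Nr4a1, Apoe, the gene with the smallest p of some of the lists, mesothelial genes of at least 1 CPM, and the nearest in profile. The smallest-p genes of the remaining lists are not named. Others were chosen after their values were seen.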

Additional observations from a re-analysis of the deposited data

Results flagged for a closer look

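Krt8 in DKO 4 (0.511 CPM) lay above the other 3 double knockout libraries, which were at 0.178 to 0.192 CPM. The gap was 0.958 of the range of the group. It rests on 10 counts against 4 in each of the others, and of 8 genes examined in this way this was the only one. Chance gives about 1 in 20 such groups, a rate that makes no allowance for low, tied counts. The Poisson 95% interval of DKO 4 (0.245 to 0.940 CPM) overlapped those of DKO 1 to DKO 3 (upper ends 0.490, 0.480 and 0.455 CPM).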

How the results depend on the processing

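No member was called under any alternative in which it had an adjusted p (lowest 0.0593, Krt8 with limma voom). Of 131 member values, 118 kept their direction and 13, in 5 members, reversed. Krt18 was -0.15 with ApoE 2 and ApoE 3 left out, -0.023 with limma voom, -0.070 with the replicate block, and -0.090 to 0.215 with 1 library left out. Wt1 was -0.021 with the replicate block and -0.010 to 0.41 with 1 library left out. With ApoE 2 and ApoE 3 left out, Msln was 1.18, Upk3b 2.09 and Krt19 0.52; with limma voom Upk3b was 0.20. The cause was not tested.

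Of all genes, 453 were higher and 679 lower with DESeq2, and 902 higher and 1467 lower with limma voom. With the replicate block 0 were lower. The replicate numbers share only a number: same-numbered pairs correlated at -0.39, 0.70 and 0.0036, and DKO 1 correlated best with ApoE 3 (0.58). Leaving out 1 library gave 0 to 4 higher and 0 to 2 lower, leaving out ApoE 2 and ApoE 3 gave 0 lower, and leaving out ApoE 3 and DKO 1 gave 2 higher and 0 lower. On FPKM, 1 was higher with a mean of at least 1 at either pseudocount, 1 with a pseudocount of 0.1 unfiltered (chosen after seeing the data), and 0 were lower with a pseudocount of 1 unfiltered. At a minimum count of 50 the members tested were Krt18 and Krt19, at a mean of 1 FPKM Krt18, and Krt8 could not be tested without DKO 4. Apart from Krt18, the members rest on 61 to 265 counts each over the 7 libraries.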
